A study of Mus musculus with 9 samples.

Results

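The genes described here are 8 inhibitory receptors of B cells (Fcgr2b, Cd22, Cd72, Siglecg, Lilrb4a, Pirb, Cd5 and Fcrl5) and Ptpn6, which encodes the phosphatase that many of these receptors recruit. They were taken by symbol and are 9 genes of the 55385 in the count tables. The study profiled total mouse splenocytes, sorted with the dye DAPI, by CITE-seq, which counts transcripts and antibody-bound barcodes in the same droplet. The mice carried the R594C substitution in IRE1, the endoplasmic reticulum sensor whose RNase activity splices Xbp1 mRNA, on both alleles (R594C/R594C, 2 hashtag replicates) or on 1 allele (R594C/+, 4 hashtag replicates), and were compared with WT mice (4 hashtag replicates). The series asks whether the substitution alters the immune compartment. The sources used here give no strain, age or treatment, and the mutation is not described there as restricted to a cell type. The labels speak of replicates and not of separate animals, so p-values measure the spread between these replicates. By Xist and Y-linked transcripts the 2 R594C/R594C replicates were of different sex and thus not samples of 1 animal. WT replicate 2 differed in the same way from the other WT replicates. Between replicates of the same sex the spread may be technical.

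Inhibitory receptors of B cells carry tyrosine motifs in their cytoplasmic tails. When the kinase Lyn phosphorylates these motifs, they bind the tyrosine phosphatase SHP-1, the product of Ptpn6, or the lipid phosphatase SHIP, and these enzymes dampen signals from the B cell receptor. CD22 and Siglec-G bind sialic acids, Fc gamma receptor IIB binds IgG in immune complexes, CD72 binds semaphorin 4D, PIR-B binds MHC class I, and CD5 marks B1a cells and T cells. Mice that lack Fcgr2b, or lack Ptpn6 in B cells, develop autoantibodies, and the expression of these receptors differs between follicular, marginal zone and B1 cells.

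The antibody panel held 4 tags directed at products of these genes, and their barcodes are shown because the protein values below are counts of exactly these 15 bases. They are given as deposited.
CD22: aggtcctctctggat
CD5: cagctcagtgtgttg
CD16_CD32: ttcgatgctggagca
PIRA_PIRB: tgtagagtcagacct
The CD22 and CD5 tags each name 1 product. The CD16_CD32 tag is directed at the products of both Fcgr3 and Fcgr2b, and the PIRA_PIRB tag at the activating PIR-A proteins as well as PIR-B.

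Promoter windows (250 bases before the transcript start, RefSeq, GRCm38.p6) were found for 8 of the 9 genes, and those of Fcgr2b and Pirb are printed because Fcgr2b is the gene called in B1-like cells in both comparisons of R594C/R594C, and Pirb is transcribed in myeloid and B cell classes and its window held the most matches to the motif shown. Both are given 5′ to 3′ on the minus strand, and capitals mark matches to GAGGAA or its complement TTCCTC, the core bound by the myeloid and B cell factor PU.1.
Fcgr2b, chr1:170976072-170976321: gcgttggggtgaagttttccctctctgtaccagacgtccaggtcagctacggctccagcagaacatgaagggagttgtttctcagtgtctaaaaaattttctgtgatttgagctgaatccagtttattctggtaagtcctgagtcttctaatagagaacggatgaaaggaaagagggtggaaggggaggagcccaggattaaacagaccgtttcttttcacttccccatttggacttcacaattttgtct
Pirb, chr7:3720383-3720632: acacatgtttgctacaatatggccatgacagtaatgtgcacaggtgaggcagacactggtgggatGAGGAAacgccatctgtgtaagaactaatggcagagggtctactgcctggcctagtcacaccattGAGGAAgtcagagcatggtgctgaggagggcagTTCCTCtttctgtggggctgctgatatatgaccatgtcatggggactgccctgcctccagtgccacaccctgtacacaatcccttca
The Pirb window held 3 matches and the Fcgr2b window 0. Siglecg held 2 in 1 of its 2 windows, Cd72 and Cd5 held 1 each, and 23.3% of the 32851 mouse windows of this length held at least 1. The octamer ATGCAAAT, searched on both strands, was in none of the 8 genes' windows and in 1.60% of all windows. The GC box GGGCGG occurred 5 times in the Ptpn6 window, and 32.7% of all windows held it. Matches are letters only and were not tested as binding sites.

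The 3 captures held 17444 barcodes (R594C/R594C), 17980 barcodes (R594C/+) and 16027 barcodes (WT), with between 68 and 89 barcodes shared by any pair of captures. After filtering, 41185 cells remained, in replicates of 2946 to 7278 cells and 13276279 to 28650137 RNA UMIs. Clusters were named from marker lists that held none of the 9 genes, and 3748 cells stayed unnamed. The B1-like class was 1 cluster of 1821 cells that met 4 of its 7 markers and was led by 1810046K07Rik, Apoe and Bhlhe41. Each genotype was 1 capture with 1 antibody tag library, so genotype, capture and any difference in staining between captures cannot be told apart. Xist and Y-linked transcripts marked 1 of the 2 R594C/R594C replicates, all 4 R594C/+ replicates and 1 of the 4 WT replicates as female. Levels are UMIs scaled to counts per 1e6 RNA UMIs (CPM) of the summed cells of a class in a replicate, and levels of different genes are not set against each other.

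Within the B lineage the mean CPM was lowest in plasma cell-like cells for 8 of the 9 genes, and in follicular-like cells for Cd5. For Fcgr2b this place depended on the scale, since with TMM factors its log2 fold change against follicular-like cells was -0.12 in plasma cell-like cells, -0.20 in germinal centre-like and -0.34 in transitional-like cells. B1-like cells held the highest mean of Cd72 and Fcrl5 over all classes and, among B cell classes, that of Fcgr2b, Lilrb4a, Pirb and Cd5. The 17 classes with at least 10 cells in at least 6 replicates gave 144 pairs of neighbours in the order of levels, and 26 pairs differed (exact sign-flip permutation test over replicates, two-sided, adjusted over all pairs, smallest unadjusted p possible 0.00195). With any 1 replicate left out, 13 to 15 pairs passed. The smallest p possible is larger with fewer replicates, so this fall cannot show whether the order is unstable. The map of mean levels shows 3 patterns, a B cell pattern for Cd22, Cd72, Siglecg and Fcrl5, a myeloid pattern for Lilrb4a and Pirb, and a T cell pattern for Cd5.

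**Figure D1:**
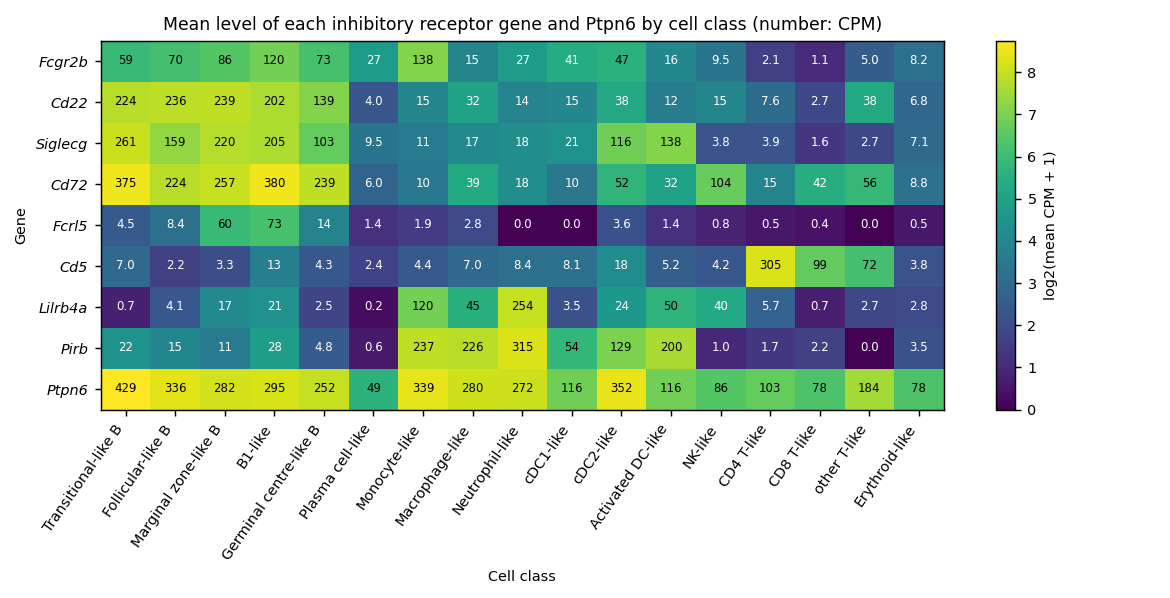
Mean level over hashtag replicates of each gene (rows) in each of 17 cell classes (columns), as a number in CPM and as colour on a log2(mean CPM + 1) scale. Cd22 stays between 139 and 239 CPM in the 5 B cell classes and is at 4.03 CPM in plasma cell-like cells, while Lilrb4a and Pirb are highest in neutrophil-like and monocyte-like cells.

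Cd22 encodes the sialic acid-binding receptor that sets the threshold of the B cell receptor. Its level averaged 239 ± 30.1 CPM in marginal zone-like, 236 ± 19.0 in follicular-like, 224 ± 30.6 in transitional-like and 202 ± 60.0 CPM in B1-like cells (SD, n = 10 each), and these 4 did not differ between neighbours in the order. Germinal centre-like B cells followed at 139 ± 13.0 CPM and plasma cell-like cells held 4.03 ± 1.81 CPM (SD, n = 10). CD8 T-like cells, which are not known to use Cd22 and serve here as a gauge of free RNA, held 2.68 CPM, and on the CPM scale the plasma cell-like level did not differ from that beyond its spread (adjusted p = 0.128, exact sign-flip permutation test). With TMM factors the log2 fold change of Cd22 against follicular-like cells was -4.55 ± 0.12 in plasma cell-like and -6.19 ± 0.11 in CD8 T-like cells (SE), so that comparison depended on the scale. Siglecg, a second sialic acid-binding receptor best known for restraining B1 cells, averaged 261 ± 48.9 CPM in transitional-like, 221 ± 17.1 in marginal zone-like, 205 ± 20.1 in B1-like and 159 ± 19.6 CPM in follicular-like cells (SD, n = 10 each). B1-like cells exceeded follicular-like cells in Siglecg in 10 of 10 replicates (exact sign-flip permutation test, adjusted p = 0.0216). Siglecg was also present in dendritic cells, with 138 CPM in activated DC-like and 116 ± 16.3 CPM in cDC2-like cells.

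Cd72 encodes a C-type lectin-like receptor of B cells. Its level averaged 380 ± 129 CPM in B1-like and 375 ± 52.0 CPM in transitional-like cells (SD, n = 10 each), and these did not differ (exact sign-flip permutation test, adjusted p = 0.888). Transitional-like cells exceeded marginal zone-like cells (257 ± 19.4 CPM) in 10 of 10 replicates. The B1-like replicates spread widely, with 234 CPM as the lowest, 320 as the median and 638 as the highest, whereas follicular-like replicates lay between 199 and 245 CPM, a narrower range over the same replicates. NK-like cells held 104 ± 27.2 CPM of Cd72. The Cd72 gene overlaps Tesk1 in the RefSeq annotation, so reads in the overlap are uncertain.

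Fcgr2b encodes the only Fc gamma receptor with an inhibitory motif, and it was shared by B cell classes and monocyte-like cells. Other myeloid classes held lower means, from 47.0 CPM in cDC2-like to 14.8 CPM in macrophage-like cells. Monocyte-like cells averaged 138 ± 27.0 CPM and B1-like cells 121 ± 31.99 CPM (SD, n = 10 each), and these did not differ beyond their spread (adjusted p = 0.528, exact sign-flip permutation test). B1-like cells exceeded marginal zone-like cells (86.0 ± 8.25 CPM) in 8 of 10 replicates, with an adjusted p of 0.0433 in the exact test. The 2 replicates that did not were those of R594C/R594C. Follicular-like cells averaged 70.3 ± 4.93 CPM, plasma cell-like cells 27.2 ± 7.78 CPM, and the CD4 and CD8 T-like classes 2.12 and 1.13 CPM. Within the monocyte-like class, the cluster led by Fn1, Lyz2 and F13a1 held 162.5 ± 35.2 CPM of Fcgr2b (n = 9), and the cluster led by Ace, Fabp4 and Ear2 held 63.5 ± 29.0 CPM (n = 8).

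Fcrl5, an Fc receptor-like gene known in mice from marginal zone and B1 cells, averaged 73.1 ± 11.0 CPM in B1-like, 59.6 ± 4.88 in marginal zone-like, 14.0 ± 4.24 in germinal centre-like, 8.37 ± 1.299 in follicular-like and 4.54 ± 3.77 CPM in transitional-like cells (SD, n = 10 each). Each of these classes differed from the next (adjusted p from 0.0216 to 0.0433, exact sign-flip permutation test). No Fcrl5 UMI was counted in neutrophil-like, cDC1-like or other T-like cells. Those counts of 0 allow up to 1.60 CPM in neutrophil-like, 1.24 in cDC1-like and 3.22 CPM in other T-like cells (3 counts of each class's UMIs, counting error only). Fcrl5 overlaps the annotated gene Gm40085.

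Cd5 was a T cell transcript in this spleen, with 305 CPM in CD4 T-like, 98.5 in CD8 T-like and 71.5 CPM in other T-like cells. B1-like cells held 12.6 ± 5.15 CPM, with 5.61 as the lowest and 21.6 as the highest replicate, and follicular-like cells held 2.18 ± 0.93 CPM (SD, n = 10 each). The B1-like value rests on 119 UMIs in 1821 cells. The marker list of T cells summed to 39.1 to 42.6 CPM in R594C/R594C, 50.6 to 77.1 in R594C/+ and 51.9 to 88.9 CPM in WT replicates of the same cells, with none of its 8 genes at 0, and its part in the Cd5 level was not tested.

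Lilrb4a and Pirb belong to the leukocyte Ig-like receptor family, whose inhibitory members are best known from myeloid cells. Lilrb4a averaged 254 ± 107 CPM in neutrophil-like and 119.8 ± 40.6 CPM in monocyte-like cells (SD, n = 10 each), and these differed in 9 of 10 replicates (adjusted p = 0.0331, exact sign-flip permutation test). Among B cell classes it was found in B1-like (20.7 ± 8.39 CPM) and marginal zone-like cells (17.3 ± 5.002 CPM), against 4.13 ± 1.38 CPM in follicular-like, 2.55 ± 4.50 in germinal centre-like and 0.73 ± 1.18 CPM in transitional-like cells. Pirb averaged 315 ± 82.5 CPM in neutrophil-like, 237 ± 39.9 in monocyte-like, 226 ± 91.0 in macrophage-like and 129 ± 19.8 CPM in cDC2-like cells. In B cells Pirb was highest in B1-like cells (28.1 ± 5.99 CPM) and transitional-like cells (21.7 ± 7.90 CPM), which did not differ, and lowest in germinal centre-like cells (4.79 ± 3.37 CPM). Both genes have close paralogs (Lilr4b for Lilrb4a, Pira2 and Lilra6 for Pirb), so counts shared among these loci are uncertain.

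Ptpn6, which encodes SHP-1, was counted in all 17 classes. It averaged 429 ± 39.9 CPM in transitional-like, 352 ± 38.1 in cDC2-like, 339 ± 56.1 in monocyte-like, 336 ± 17.2 in follicular-like, 295 ± 20.6 in B1-like and 282 ± 27.7 CPM in marginal zone-like cells (SD, n = 10 each). The step between transitional-like and cDC2-like cells and that between follicular-like and B1-like cells passed the test (adjusted p = 0.0433 for both, exact sign-flip permutation test), and the steps between cDC2-like, monocyte-like and follicular-like cells did not. Plasma cell-like cells had the lowest CPM at 49.0 ± 11.5, under CD8 T-like cells (78.1 CPM) in 10 of 10 replicates (adjusted p = 0.0216, exact test). With TMM factors that order turned, with log2 fold changes against follicular-like cells of -1.55 in plasma cell-like and -2.01 in CD8 T-like cells.

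Measured against follicular-like B cells of the same replicates, B1-like cells had 7 of the 9 genes higher and 1 lower (edgeR quasi-likelihood test with the replicate as a block, Benjamini-Hochberg over 10744 genes, 47.8% of which passed 0.05). Fcrl5 was 8.77-fold higher (log2 3.13), Cd5 5.85-fold, Lilrb4a 4.58-fold, Pirb 1.80-fold, Fcgr2b 1.63-fold, Cd72 1.61-fold and Siglecg 1.28-fold, with adjusted p from 3.99e-31 for Fcrl5 to 0.00138 for Cd72. Ptpn6 was lower (log2 fold change -0.22, adjusted p = 4.51e-05), and the fold of Cd22 was -0.30 on the log2 scale (adjusted p = 0.0802). Marginal zone-like cells had 5 genes higher and 2 lower, where 46.3% of genes passed, with Fcrl5 7.53-fold and Lilrb4a 4.31-fold higher and Pirb lower by 0.38 on the log2 scale (adjusted p = 0.0111). Pirb was thus higher than in follicular-like cells in 1 of these classes and lower in the other, and B1-like and marginal zone-like cells were not tested against each other.

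Transitional-like cells had 5 genes higher and 4 lower than follicular-like cells, where 25.7% of genes passed, with Cd72 1.51-fold and Siglecg 1.5-fold higher and Fcrl5 and Lilrb4a among the lower. Of all calls in that comparison 46.8% were higher, and 79.8% were higher when libraries were scaled by size only, which moved the genes' folds by a median of 0.16 (log2) and left 5 of the 9 higher and 2 lower. Germinal centre-like cells had 1 gene higher (Fcrl5) and 5 lower, where 68.3% of genes passed, led by Pirb (log2 fold change -1.73), Cd22 (-0.99) and Siglecg (-0.89). There 48.4% of calls were higher, and 63.1% with libraries scaled by size only, under which Fcgr2b had a fold of 0.03 (log2) in place of -0.20.

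Plasma cell-like cells had 7 genes lower (Cd22, Cd72, Pirb, Lilrb4a, Siglecg, Ptpn6 and Fcrl5) and 1 higher (Cd5) than follicular-like cells, where 74.4% of genes passed. Cd22 fell by 4.55, Cd72 by 3.97, Pirb by 3.27, Siglecg by 2.82 and Ptpn6 by 1.55 on the log2 scale, with adjusted p from 1.18e-31 to 4.79e-12. The split moved with the scale, and 47.1% of all calls were higher with TMM factors and 13.6% with library size only, a shift of -1.25 (log2) in the genes' folds. Fcgr2b had a fold of -0.12 (adjusted p = 0.369) under the first and -1.38 (adjusted p = 4.09e-14) under the second, and Cd5 was higher only under the first (1.41, against 0.19). All 7 lower genes were also called lower with library size only, under which 8 of the 9 were lower and 0 higher.

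Monocyte-like cells had Lilrb4a (29.4-fold), Pirb (15.1-fold) and Fcgr2b (1.84-fold) higher than follicular-like cells and 4 genes lower, where 64.0% of genes passed. Cd72 (log2 fold change -4.67), Cd22 (-4.45), Siglecg (-4.10) and Fcrl5 (-3.05, resting on 3 UMIs in monocyte-like cells) were the lower ones, and Ptpn6 did not pass (log2 fold change -0.06, adjusted p = 0.470). Neutrophil-like cells had 3 genes higher and 5 lower, where 65.0% of genes passed, with Lilrb4a 62.6-fold and Pirb 22.8-fold higher.

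In B1-like cells Fcgr2b and Lilrb4a were lower in R594C/R594C than in WT, and Fcgr2b was also lower than in R594C/+. Of the 9 genes tested there, 2 were lower in R594C/R594C than in WT, 0 changed between R594C/+ and WT, and 1 was lower in R594C/R594C than in R594C/+ (edgeR quasi-likelihood test over hashtag replicates, Benjamini-Hochberg). The shares of all 8814 genes that passed in these comparisons were 0.238%, 0.113% and 0.204%. For R594C/+ against WT, 0 of the 9 had an unadjusted p under 0.05, and DESeq2 called 0.

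Fcgr2b stood at 79.9 and 68.5 CPM in the R594C/R594C replicates, at 139.6, 156, 126 and 110.5 CPM in the R594C/+ replicates and at 113, 129, 108 and 174 CPM in the WT replicates of B1-like cells. Both R594C/R594C values were below every other replicate. The means were 74.2 ± 7.996 CPM in R594C/R594C (SD, n = 2), 133 ± 19.2 CPM in R594C/+ (SD, n = 4) and 131 ± 29.9 CPM in WT (SD, n = 4). The log2 fold change was -0.82 ± 0.17 (SE) for R594C/R594C minus WT, with an adjusted p of 0.0250 by edgeR. It was -0.83 ± 0.17 for R594C/R594C minus R594C/+ (adjusted p = 0.0226) and 0.01 ± 0.13 for R594C/+ minus WT (adjusted p = 0.999, 95% interval -0.25 to 0.27). The call against WT was lost without WT replicate 4 (log2 fold change -0.68, adjusted p = 0.117) and without either R594C/R594C replicate (-0.92 and -0.72, adjusted p = 0.170 and 0.347), and the call against R594C/+ was lost without R594C/+ replicate 1 or 2 or either R594C/R594C replicate. With expressed sex as a term the log2 fold change against WT was -0.81 (adjusted p = 0.0392). Where 1 R594C/R594C replicate is left out, the lone sample is assumed to vary like the other genotypes.

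In follicular-like B cells of the same replicates, Fcgr2b stood at 68.0 and 74.1 CPM in R594C/R594C, at 64.6 to 75.3 CPM in R594C/+ and at 66.1 to 80.8 CPM in WT, with overlapping groups and a log2 fold change of -0.01 (95% interval -0.18 to 0.17) for R594C/R594C minus WT. Both B1-like values of R594C/R594C lay within the range of the 10 follicular-like values, and the B1-like values of all R594C/+ and WT replicates lay above it. Tested as a difference of the genotype effects, B1-like minus follicular-like, Fcgr2b had a log2 value of -0.85 ± 0.17 for R594C/R594C minus R594C/+ (adjusted p = 0.0237 by edgeR, 9 of 10744 genes or 0.0838% passed). For R594C/R594C minus WT it was -0.81 ± 0.18 (adjusted p = 0.0608, 0.0279% of genes passed).

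Lilrb4a in B1-like cells stood at 5.32 and 10.4 CPM in R594C/R594C, at 21.9, 31.8, 16.15 and 17.9 CPM in R594C/+ and at 28.0, 26.0, 21.6 and 28.05 CPM in WT. The R594C/R594C values did not overlap either other group. These levels rest on 6 and 13 UMIs in R594C/R594C, 17 to 27 UMIs in R594C/+ and 9 to 37 UMIs in WT. The log2 fold change was -1.70 ± 0.35 for R594C/R594C minus WT (adjusted p = 0.0250 by edgeR), a level 0.309 times that of WT. Against R594C/+ it was -1.38 ± 0.35 (adjusted p = 0.0950). The call against WT was lost when Lilr4b was added to Lilrb4a (log2 fold change -1.11, adjusted p = 0.0574), without WT replicate 1 or 4 (adjusted p = 0.0506 and 0.0699), and without either R594C/R594C replicate (adjusted p = 0.482 and 0.0539), while DESeq2 gave no adjusted p.

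The other receptors and Ptpn6 did not pass in B1-like cells. Over all 9 genes, with the called Fcgr2b and Lilrb4a among them, 8 had a fold below 0 for R594C/R594C minus WT. The median of the 9 was -0.325, beside -0.002 over all genes tested. The share of all genes with a fold below 0 is not given, and the count is not read as a joint fall. Cd22 stood at 138 and 102 CPM in R594C/R594C, at 268, 264, 166 and 198 CPM in R594C/+ and at 243, 154, 221 and 268 CPM in WT. The R594C/R594C values were below all others, and the log2 fold change was -0.85 ± 0.27 against WT (adjusted p = 0.360) and -0.90 ± 0.26 against R594C/+ (adjusted p = 0.293). DESeq2 called Cd22 against WT and against R594C/+ (adjusted p = 0.0166 and 0.0187), so this gene lay on different sides of the threshold in edgeR and DESeq2. In edgeR it was also called without WT replicate 2 (-1.03 against WT, adjusted p = 0.0102, and -0.90 against R594C/+, adjusted p = 0.0173).

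Cd72 stood at 304.3 and 234 CPM in R594C/R594C, against 283.1 to 539.6 CPM in R594C/+ and 304.1 to 638.1 CPM in WT, and the groups overlapped (log2 fold change -0.60 ± 0.39 against WT, adjusted p = 0.781). Siglecg averaged 186 ± 11.1 CPM in R594C/R594C and 199 ± 10.6 CPM in WT, and Fcrl5 averaged 68.2 ± 3.98 CPM in R594C/R594C and 73.1 ± 14.9 CPM in WT. Both genes overlapped between these genotypes. Ptpn6, the phosphatase gene, averaged 277 ± 3.40 CPM in R594C/R594C and 295 ± 20.1 CPM in WT, also with overlap, and the interval of its log2 difference ran from -0.29 to 0.14. Pirb averaged 21.8 ± 1.91 CPM in R594C/R594C (SD, n = 2) and 29.0 ± 6.11 CPM in WT (SD, n = 4), without overlap between these genotypes, and its log2 fold change of -0.33 did not pass (adjusted p = 0.824). Cd5, which marks B1a cells, was the single gene with a fold above 0 (0.45 ± 0.37, adjusted p = 0.827).

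**Figure D2:**
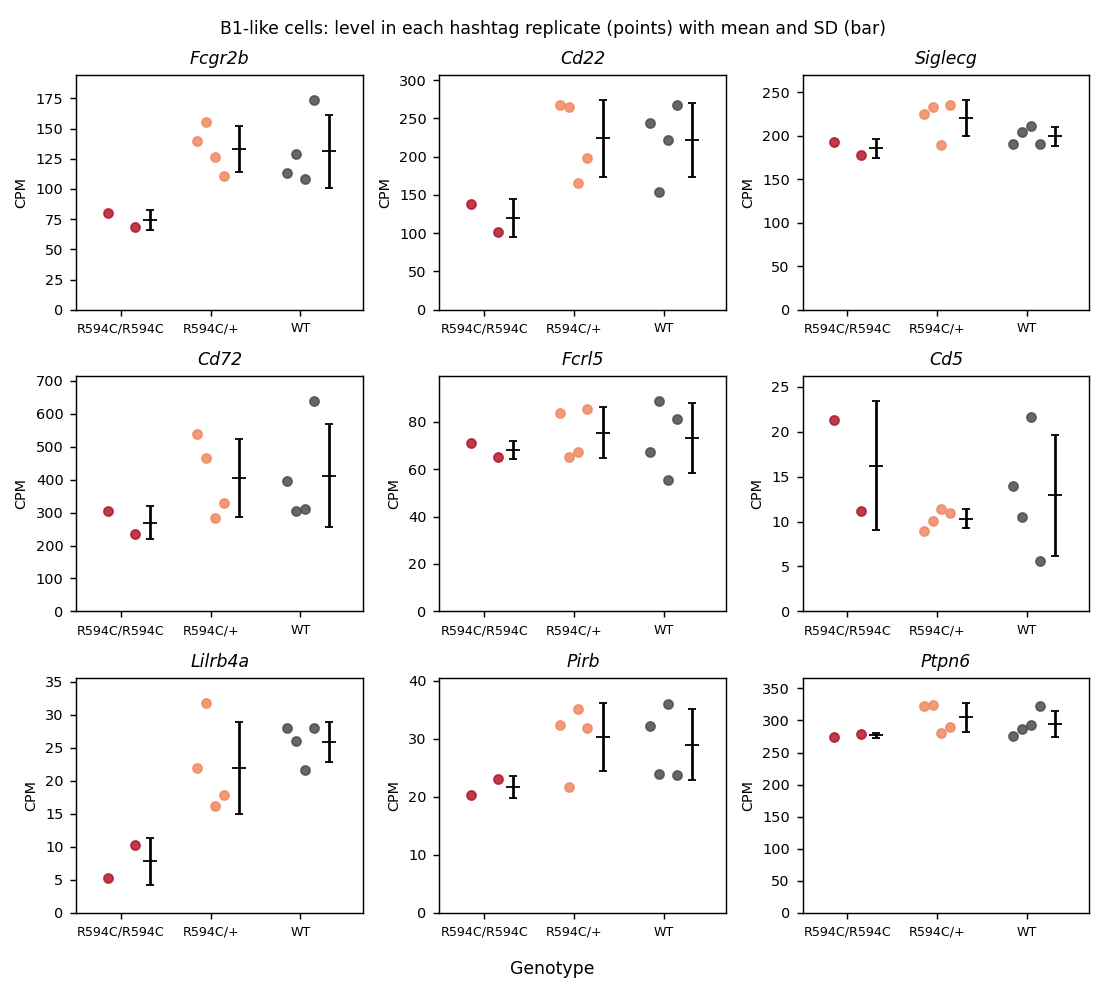
Level in CPM of each gene in B1-like cells, 1 panel per gene and 1 point per hashtag replicate (2 R594C/R594C, 4 R594C/+, 4 WT), with the mean and SD beside the points and axes that start at 0. For Fcgr2b, Lilrb4a and Cd22 both R594C/R594C points lie below every other point, while Siglecg, Fcrl5 and Cd72 overlap between R594C/R594C and WT.

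Other transcripts of the same B1-like replicates are given beside these values, and their part in the Fcgr2b and Lilrb4a values was not tested. Itgam, which encodes the CD11b chain found on many B1 cells, stood at 2.66 and 3.99 CPM in R594C/R594C, at 10.5 to 25.1 CPM in R594C/+ and at 11.2 to 17.6 CPM in WT. Spn, which encodes CD43, stood at 36.4 and 28.7 CPM in R594C/R594C, at 45.4 to 58.6 CPM in R594C/+ and at 35.0 to 48.1 CPM in WT. Cr2, a marginal zone marker, stood at 39.9 and 43.8 CPM in R594C/R594C, at 20.3 to 31.9 CPM in R594C/+ and at 21.1 to 35.1 CPM in WT, and did not pass. The whole marginal zone list (8 genes, none at 0) summed to 2797 to 2844 CPM in R594C/R594C, 2295 to 2629 in R594C/+ and 1978 to 2931 CPM in WT, so R594C/R594C lay within the WT range.

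The B1 marker list itself (7 genes, none at 0) summed to 1899 to 2208 CPM in R594C/R594C, 1788 to 2277 in R594C/+ and 1934 to 2111 CPM in WT, with overlapping groups. Zbtb20 made up most of this sum, with 1292 and 1103 CPM in the R594C/R594C replicates. Anxa2 of the same list stood at 54.1 and 58.2 CPM in R594C/R594C and at 45.4 to 75.0 CPM in R594C/+. In WT it stood at 65.5 to 162 CPM, without overlap with R594C/R594C. The other markers of the list overlapped between R594C/R594C and WT. The monocyte list (8 genes, with Ace at 0) summed to 136 to 224 CPM in R594C/R594C, 117 to 192 in R594C/+ and 135 to 171 CPM in WT, and the neutrophil list (8 genes, none at 0) to 54.1 to 56.6 CPM in R594C/R594C, 92.0 to 116 in R594C/+ and 14.1 to 26.4 CPM in WT. In the neutrophil list R594C/R594C lay above WT and below R594C/+, and in the monocyte list it overlapped both. The part of myeloid RNA in the Fcgr2b and Lilrb4a values was not tested. The transitional list (5 genes, none at 0) summed to 438 to 462 CPM in R594C/R594C, 241 to 377 in R594C/+ and 268 to 397 CPM in WT, so the R594C/R594C cells stood above both other genotypes in it. The follicular list (6 genes, none at 0) summed to 3259 to 3515 CPM in R594C/R594C. It overlapped both R594C/+ (2857 to 3618 CPM) and WT (2704 to 3440 CPM). Ighd of that list stood at 317.6 and 303.7 CPM in R594C/R594C, above WT (167.5 to 296.5 CPM). In R594C/+ it stood at 178.3 to 307.6 CPM, with overlap. The part of follicular-like cells in the Fcgr2b values was not tested. The germinal centre list (7 genes, none at 0) summed to 38.2 to 50.2 CPM in R594C/R594C, 48.4 to 85.2 in R594C/+ and 64.3 to 86.5 CPM in WT. The erythroid list (7 genes, none at 0) summed to 125 to 146 CPM in R594C/R594C, 125 to 179 in R594C/+ and 26.4 to 71.3 CPM in WT. In both lists R594C/R594C did not overlap WT, below it in the first and above it in the second. As a gauge of free RNA, Fcgr2b in CD4 T-like cells was 1.06 and 1.06 CPM in R594C/R594C, 0.903 to 3.47 in R594C/+ and 1.74 to 2.903 CPM in WT. In CD8 T-like cells it was 1.71 and 1.98 CPM in R594C/R594C, 0 to 1.05 in R594C/+ and 0.976 to 2.49 CPM in WT, so R594C/R594C lay below WT in the CD4 class and within the WT range in the CD8 class. The smallest replicate of B1-like cells held 68 cells, and the class held 454 R594C/R594C, 804 R594C/+ and 563 WT cells.

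**Figure D3:**
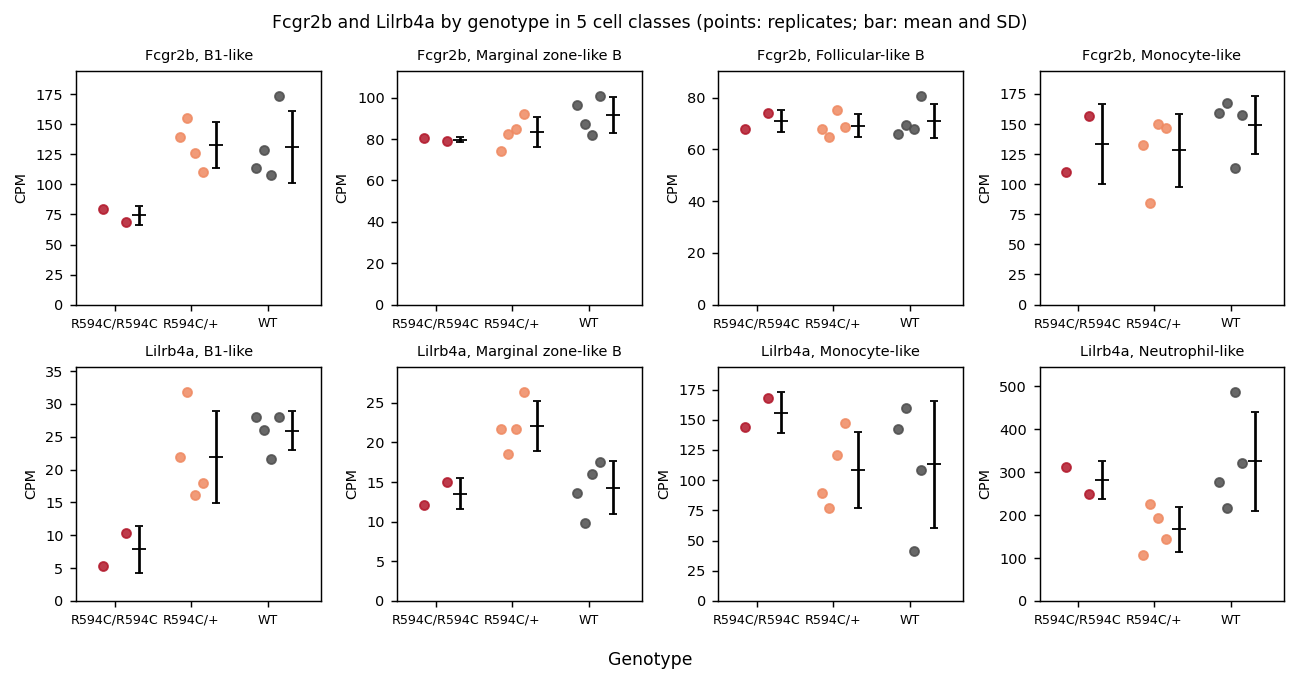
Level in CPM of Fcgr2b (top) and Lilrb4a (bottom) by genotype in B1-like cells and in 3 comparison classes each, with 1 point per hashtag replicate and the mean and SD beside the points. R594C/R594C points are separate from WT in B1-like cells for both genes, and in marginal zone-like cells for Fcgr2b, and overlap WT in the other panels.

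In the 9 other classes fitted, none of the 153 tests of a gene and contrast passed the edgeR threshold, and DESeq2 called 0. Of these tests 21 had an unadjusted p under 0.05. The share of all genes under that unadjusted cutoff is not set beside this count, so nothing is read from it. The shares of all genes that passed in follicular-like cells were 0.213% (R594C/R594C minus WT), 0.398% (R594C/+ minus WT) and 0.749% (R594C/R594C minus R594C/+). In marginal zone-like cells they were 0.168%, 0.839% and 0.157% in the same contrasts. For the same 3 contrasts in that order they were 0.108%, 0.124% and 0.186% in transitional-like cells, 0, 0.0373% and 0.0249% in germinal centre-like cells and 0.260%, 0.195% and 0.169% in plasma cell-like cells. They were 0.0198%, 0.0594% and 0.0594% in monocyte-like cells, 0, 0.0907% and 0 in macrophage-like cells, 0, 0.0301% and 0 in cDC2-like cells, and 0, 7.21% and 0 in neutrophil-like cells. Low counts left 9 of the 9 genes testable in follicular-like, 8 in marginal zone-like, 6 in transitional-like and in germinal centre-like, 8 in cDC2-like, 5 in plasma cell-like, 4 in monocyte-like, 3 in neutrophil-like and 2 in macrophage-like cells.

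In marginal zone-like cells Lilrb4a stood at 12.1 and 14.96 CPM in R594C/R594C, at 21.7, 18.6, 21.7 and 26.4 CPM in R594C/+ and at 13.6, 9.86, 16.0 and 17.6 CPM in WT. The R594C/+ values lay above all others, with a log2 fold change of 0.69 ± 0.22 for R594C/+ minus WT (adjusted p = 0.224) and -0.73 ± 0.24 for R594C/R594C minus R594C/+ (adjusted p = 0.417). Fcgr2b in the same cells averaged 79.8 ± 1.11 CPM in R594C/R594C (SD, n = 2) and 91.6 ± 8.53 CPM in WT (SD, n = 4), with a log2 fold change of -0.17 ± 0.12 (adjusted p = 0.957). Cd22 averaged 223 ± 25.5 CPM in R594C/R594C, 221 ± 15.3 in R594C/+ and 265 ± 26.6 CPM in WT, and its log2 fold change for R594C/+ minus WT was -0.21 ± 0.08 (adjusted p = 0.368).

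In monocyte-like cells Fcgr2b averaged 134 ± 33.4 CPM in R594C/R594C, 128 ± 30.4 in R594C/+ and 149 ± 24.3 CPM in WT, and Lilrb4a averaged 156 ± 16.95 CPM in R594C/R594C, 108 ± 31.6 in R594C/+ and 113 ± 52.4 CPM in WT. Neither passed, and the log2 fold change of Lilrb4a for R594C/R594C minus WT was 0.37 ± 0.28 (adjusted p = 1). In neutrophil-like cells Lilrb4a stood at 313 and 249.8 CPM in R594C/R594C, at 107 to 225 CPM in R594C/+ and at 217 to 487 CPM in WT. This class joined clusters in unlike shares by genotype. The cluster led by Cxcl2, Slc7a11 and Csf3r held 124 R594C/R594C, 83 R594C/+ and 92 WT cells. The cluster led by Camp, Ngp and Lcn2 held 34 R594C/R594C, 94 R594C/+ and 6 WT cells. The part of this mix in the genotype values of the class was not tested. In plasma cell-like cells, the class known to rely most on Xbp1 for secretion, Fcgr2b averaged 22.6 ± 8.11 CPM in R594C/R594C, 28.0 ± 6.34 in R594C/+ and 28.7 ± 10.1 CPM in WT, with overlapping groups. cDC2-like cells had 39.5 ± 14.0 CPM of Fcgr2b in R594C/R594C, 31.5 ± 24.8 in R594C/+ and 66.4 ± 5.57 CPM in WT, and R594C/+ minus WT gave a log2 fold change of -1.10 ± 0.42 (adjusted p = 0.771). That difference was called with no filter on low counts (-1.09, adjusted p = 0.0175) and without R594C/+ replicate 1 (-1.85, adjusted p = 0.0198).

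**Figure D4:**
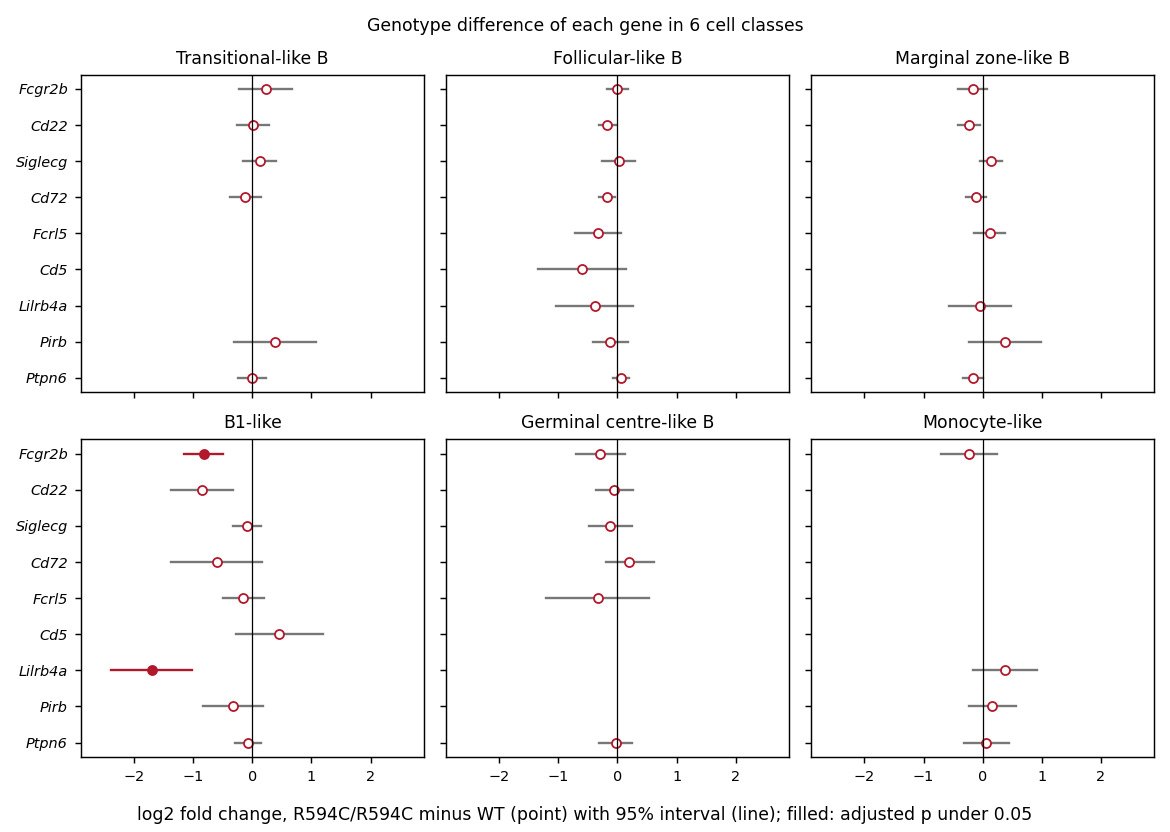
Log2 fold change, R594C/R594C minus WT, of each gene that passed the filter on low counts in 6 cell classes, as a point with its 95% interval. The filled points, Fcgr2b at -0.82 and Lilrb4a at -1.70 in B1-like cells, are those with an adjusted p under 0.05.

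Genes that act with these receptors were followed as 5 lists in B1-like cells, with R594C/R594C set against WT. Of the counterpart activating receptors 8 of 17 could be tested and 0 passed (median log2 fold change -0.18), of the other inhibitory receptors 8 of 19 and 0 (-0.34), of the other phosphatases and brakes 22 of 25 and 0 (-0.09), and of the kinases and adaptors of the B cell receptor 20 of 20 and 0 (-0.13), each beside a median of -0.002 over all genes (edgeR). An unadjusted p under 0.05 was found for 2 activating receptors (Cr2 and Fcer1g), 2 other inhibitory receptors (Cd200r1 and Pecam1), 5 phosphatases and brakes (Grb2, Inpp4b, Inpp5d, Ptprc and Ubash3b) and 6 kinases and adaptors (Bank1 and Syk among them), and DESeq2 called 0 in each of the 4 lists. The unadjusted counts stand without the share of all genes under that cutoff, and nothing is read from them. Of the ligands and the enzymes that make them, all 15 were tested and 1 fell, Ighg2c.

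Ighg2c, the constant region of the IgG2c isotype that Fc gamma receptors bind, averaged 18.8 ± 2.73 CPM in R594C/R594C, 132 ± 19.6 in R594C/+ and 73.1 ± 18.8 CPM in WT B1-like cells, with log2 fold changes of -1.93 against WT (adjusted p = 1.90e-05) and -2.78 against R594C/+. It was higher in R594C/+ than in WT (0.86, adjusted p = 0.00335). The same direction against WT was called in follicular-like (-2.51), marginal zone-like (-2.61) and transitional-like cells (-3.06) of R594C/R594C. Monocyte-like cells, which do not make IgG, held 5.23 ± 0.26 CPM of Ighg2c in R594C/R594C and 45.9 ± 12.3 CPM in R594C/+ (log2 fold change -3.09, adjusted p = 0.0308), so a transcript foreign to that class differed as well, and the part of free RNA in these values was not tested.

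The other IgG constant genes did not all follow Ighg2c. Ighg2b, of the IgG2b isotype, averaged 30.5 ± 5.52 CPM in R594C/R594C, 85.9 ± 8.98 in R594C/+ and 62.7 ± 9.20 CPM in WT follicular-like cells, with log2 fold changes of -1.04 against WT (adjusted p = 6.63e-05) and -1.52 against R594C/+. It was also called lower in R594C/R594C than in WT in marginal zone-like (-1.59) and transitional-like cells (-1.59). Ighg1, of the IgG1 isotype, averaged 5.03 ± 1.45 CPM in R594C/R594C, 34.8 ± 5.91 in R594C/+ and 6.68 ± 4.58 CPM in WT follicular-like cells, and was higher in R594C/+ than in WT there (2.46, adjusted p = 0.0203), in marginal zone-like (1.75) and in transitional-like cells (4.15). Ighg3, of the IgG3 isotype, moved the other way and averaged 88.3 ± 3.96 CPM in R594C/R594C and 42.5 ± 9.16 CPM in R594C/+ transitional-like cells (1.00, adjusted p = 0.0235). These genes are close in sequence, so counts shared among them are uncertain. The part of free RNA in their values was not tested either.

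H2-K1, a class I heavy chain gene whose product belongs to the ligands of PIR-B, averaged 1528 ± 43.7 CPM in R594C/R594C, 1793 ± 82.7 in R594C/+ and 1811 ± 65.6 CPM in WT follicular-like cells, with log2 fold changes of -0.25 against WT (adjusted p = 0.0130) and -0.26 against R594C/+ (adjusted p = 0.00687). Cmah, which makes the sialic acid form that mouse CD22 prefers, averaged 59.4 ± 6.14 CPM in R594C/+ and 83.9 ± 12.1 CPM in WT marginal zone-like cells, a log2 fold change of -0.47 (adjusted p = 0.0449).

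At the cell surface the CD22, CD5 and PIRA_PIRB tags correlated with their transcripts over the 17 classes, without the same order throughout, and the CD16_CD32 tag did not track Fcgr2b. The Pearson correlation of log2 tag UMIs per cell with log2 CPM was 0.91 for CD22, 0.89 for CD5, 0.96 for PIRA_PIRB and 0.14 for CD16_CD32 and Fcgr2b (17 classes that share libraries, a description only). The CD22 tag averaged 4.38 ± 0.30 UMIs per cell in marginal zone-like, 3.16 ± 0.35 in germinal centre-like, 3.12 ± 0.22 in follicular-like, 2.82 ± 0.56 in B1-like, 2.46 ± 0.40 in transitional-like and 0.523 ± 0.0765 UMIs per cell in plasma cell-like cells (SD, n = 10 each). Germinal centre-like cells thus stood second for the tag per cell and last of the 5 B cell classes for Cd22 CPM. These scales are unlike, since CPM is relative to the RNA of the cells. The germinal centre-like cluster held a median of 11247 RNA UMIs per cell and the marginal zone-like cluster 5035. A difference between protein and transcript is therefore not read from these orders. The CD5 tag averaged 6.21 ± 1.80 UMIs per cell in B1-like and 1.02 ± 0.12 in follicular-like cells, against 109 ± 11.7 in CD4 T-like cells. The PIRA_PIRB tag averaged 6.49 ± 0.74 UMIs per cell in B1-like, 2.45 ± 0.20 in follicular-like and 43.7 ± 11.1 in neutrophil-like cells.

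The CD16_CD32 tag averaged 0.385 ± 0.172 UMIs per cell in B1-like and 0.229 ± 0.128 in follicular-like cells, against 0.203 ± 0.12 in CD4 T-like cells, where Fcgr2b was near 0. Monocyte-like cells held 10.0 ± 1.41 and neutrophil-like cells 21.6 ± 4.21 UMIs per cell of this tag, and Fcgr3, the other gene of the pair, stood at 127 to 237 CPM in monocyte-like and at 0 in 7 of the 10 replicates of B1-like cells. The tag gave B cell classes a level close to that of T cells although their Fcgr2b transcript was high.

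**Figure D5:**
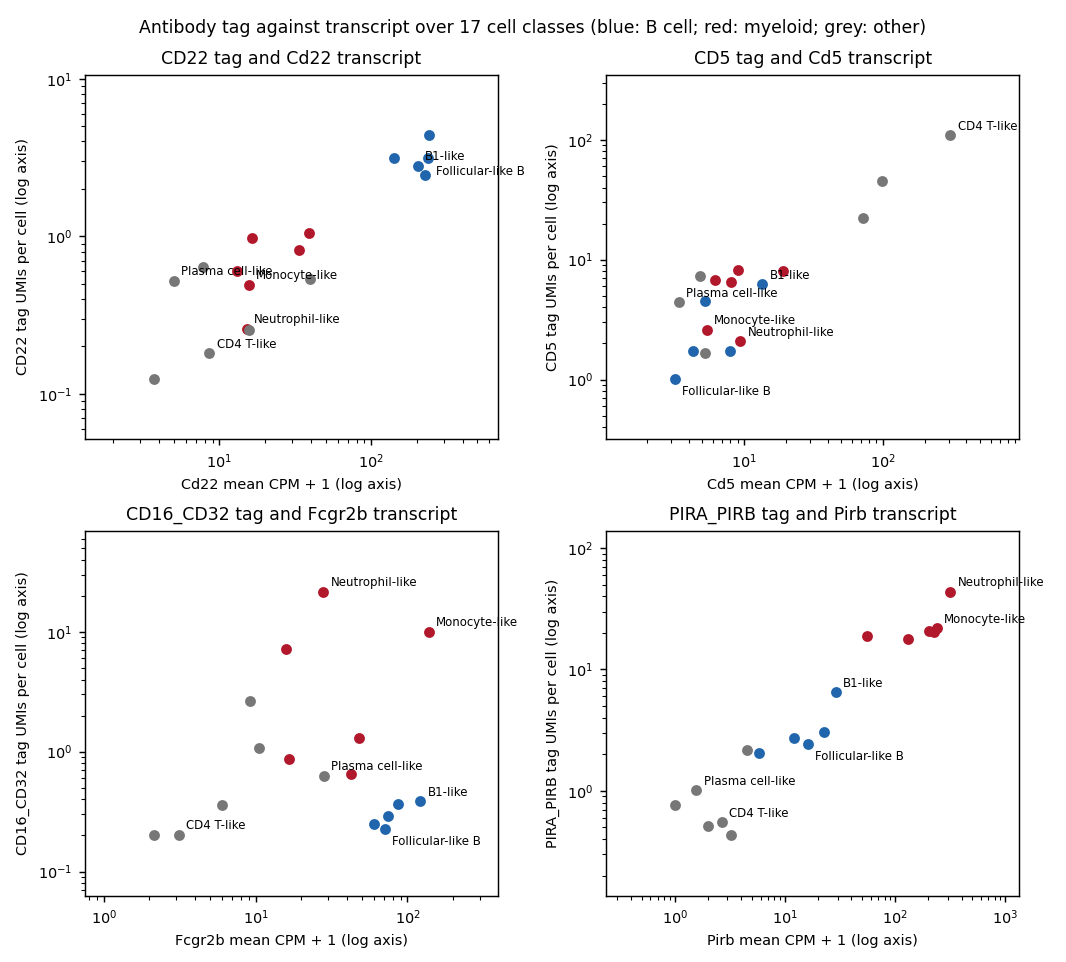
Mean antibody tag UMIs per cell (vertical, log axis) against mean CPM + 1 of the transcript (horizontal, log axis), 1 point per cell class, blue for B cell, red for myeloid and grey for other classes. CD22, CD5 and PIRA_PIRB rise with their transcripts, and in the CD16_CD32 panel the B cell classes lie between 0.229 and 0.385 UMIs per cell despite Fcgr2b levels of 59.1 to 121 CPM.

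Tag differences between genotypes depended on the scale, and no direction is drawn from them. The 10 isotype control tags, which should bind nothing, summed to 1.501 UMIs per cell in R594C/R594C, 2.24 in R594C/+ and 3.67 in WT follicular-like cells, and 78.8% of the 170 tags tested there passed between R594C/R594C and WT and 74.1% between R594C/+ and WT, with all 4 of the tags described here called in both. In B1-like cells 3 of the 4 were called between R594C/R594C and WT, where 63.1% of 168 tags passed, and 1 between R594C/+ and WT, where 38.7% passed. In monocyte-like cells 2 were called between R594C/R594C and WT, where 25.4% of 122 tags passed. The CD22 tag of B1-like cells stood at 1.91 and 2.28 UMIs per cell in R594C/R594C, at 2.60 to 3.86 in R594C/+ and at 2.46 to 3.39 in WT. Its log2 fold change for R594C/R594C minus WT was 0.62 (adjusted p = 0.0129) with TMM factors and -0.46 (adjusted p = 0.0461) with the antibody library size. The CD16_CD32 tag stood at 0.134 and 0.194 UMIs per cell in R594C/R594C, at 0.223 to 0.519 in R594C/+ and at 0.496 to 0.618 in WT B1-like cells. In follicular-like cells it stood at 0.0680 and 0.0809 in R594C/R594C, at 0.158 to 0.172 in R594C/+ and at 0.360 to 0.383 in WT. The order of genotypes was the same as for the isotype controls. The CD5 tag of B1-like cells stood at 6.88 and 7.50 UMIs per cell in R594C/R594C, at 6.12 to 8.28 in R594C/+ and at 3.52 to 4.07 in the 3 male WT replicates, with 8.25 in the female one.

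Genes with the most similar profile over the 17 classes were sought among 9803 genes (Pearson correlation of log2(mean CPM + 1), a description only, over classes that share libraries and depth). They were Napsa (0.948) and Unc93b1 (0.882) for Fcgr2b, Abhd17b (0.925) and Ffar1 (0.922) for Cd22, Ptp4a3 (0.926) and Rrm2b (0.914) for Cd72, and H2-DMb2 (0.981) and Carmil1 (0.961) for Siglecg. Csf2ra (0.965) and Wfdc17 (0.952) were closest to Pirb, Mir22hg (0.864) and Reep3 (0.860) to Lilrb4a, Cd6 (0.902) and Ikzf4 (0.899) to Cd5, Snhg18 (0.912) and Gm4610 (0.906) to Fcrl5, and Stap1 (0.890) and Dclre1c (0.886) to Ptpn6. Among the 9 genes themselves, Cd22 and Cd72 had the highest value (0.87), Cd22 and Siglecg 0.80, and Lilrb4a and Pirb 0.71, while Fcgr2b and Cd5 had the lowest (-0.68).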

How the data were processed

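Single-cell RNA, antibody tags and hashtags were counted in 3 captures of splenocytes, 1 per genotype, deposited as 9 samples. The deposited values are raw UMI counts per feature and barcode, written by Cell Ranger 5.0.0 per the file headers; Cell Ranger, STAR, Seurat 3.1.4 and mm10 are named in the submitters' processing notes, with no role given. The filter behind the barcodes is not given in the sources used here. No other columns of per-sample values were found (0).

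Barcodes were kept from 200 detected genes and up to 10% mitochondrial UMIs, and were assigned to hashtags with HTODemux (Seurat 5.3.0, quantile 0.99). Hashtag doublets were removed, as were cells with the highest simulated-doublet scores, which were computed at an expected rate of 10%. The share to remove was set per capture from its hashtag doublets and its number of hashtags, so it differed by genotype. The expected shares were 9.95% (R594C/R594C), 3.99% (R594C/+) and 3.38% (WT). Removed were 9.37% of R594C/R594C, 3.78% of R594C/+ and 3.04% of WT single-hashtag cells. The rest were clustered with scanpy 1.11.5 (2000 variable genes without the 9 genes, 30 components, 20 neighbours, Leiden resolution 1.5, 38 clusters). A cluster took a class name when it met at least 3 and at least a 0.5 share of the class's markers.

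Counts were summed per class and replicate (at least 10 cells) and tested with edgeR 4.0.16 (quasi-likelihood, TMM, filterByExpr, no covariate), with Benjamini-Hochberg adjustment over all genes and a threshold of 0.05. Differences between classes and differences of genotype effects used the same test with the replicate as a block, and antibody tags with at least 10 UMIs per replicate were tested alike. Levels of neighbouring classes were compared with exact sign-flip tests of log2(CPM + 1), with a pseudocount of 1. DESeq2 1.42.0 and other settings were alternatives, and the edgeR script was tested on simulated data. Germinal centre-like, cDC2-like and neutrophil-like cells and the sum over paralogs were added after seeing the data. The 95% intervals are the fold change plus and minus the normal quantile times its SE. The limit that a count of 0 allows covers counting error only.

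The 9 genes and the lists were chosen with earlier results of these data known. Named besides the 9 genes were list members past the threshold in a B cell class (at most 4 per list and contrast), the 2 genes with the most similar profile among those reaching 20 CPM in a class, and genes given beside a result, which were chosen after their values were seen. Promoter sequences and gene overlaps are from RefSeq (GRCm38.p6), and antibody barcodes from the deposited feature reference.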

Additional observations from a re-analysis of the deposited data

Results flagged for a closer look

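Of 130 groups of 4 replicates examined, 5 had a replicate set far from the others, and chance alone gives about 1 in 20. Cd22 was 25.58 CPM in monocyte-like cells of R594C/+ replicate 3, with the other replicates at 8.97 to 11.48 CPM. Siglecg was 98.5 CPM in cDC2-like cells of R594C/+ replicate 3, with the others at 126.9 to 130.3 CPM, and 46.89 CPM in neutrophil-like cells of R594C/+ replicate 2, with the others at 12.5 to 14.64 CPM. Fcrl5 was 25 CPM in germinal centre-like B cells of WT replicate 2, with the others at 12.75 to 13.18 CPM. Ptpn6 was 256.3 CPM in neutrophil-like cells of R594C/+ replicate 3, with the others at 187.6 to 197.6 CPM.

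The difference between R594C/R594C and R594C/+ in Fcgr2b was not the same in B1-like and follicular-like B cells. The B1-like log2 fold change minus the follicular-like one was -0.845 (edgeR interaction, adjusted p = 0.0237). For R594C/R594C minus WT it was -0.814 and did not pass (adjusted p = 0.0608).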

How the results depend on the processing

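For R594C/R594C minus WT in B1-like cells, 2 of the 9 genes were called, 1 with paralogs summed and 0 to 3 when 1 replicate was left out. For R594C/R594C minus R594C/+ in the same cells 1 was called, against 2 with DESeq2, 3 with no filter on low counts, 2 with the replicate block, 2 with expressed sex as a term and 0 to 2 when 1 replicate was left out. For R594C/+ minus WT in cDC2-like cells 0 were called, 1 with no filter and 0 to 1 when 1 replicate was left out. Fcgr2b for R594C/R594C minus WT was called in 17 of 20 alternatives (log2 fold change -0.92 to -0.68), and Lilrb4a in 14 of 19 (-2.27 to -1.11). For R594C/R594C minus R594C/+, Fcgr2b was called in 16 of 20 (-0.93 to -0.73) and Lilrb4a in 2 of 20 (-1.96 to -0.66). Of 180 gene folds, 173 were called under no setting.

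Same-numbered replicates of different genotypes had correlations of their deviations from -0.121 to 0.618. The deviations of the 2 R594C/R594C replicates mirror each other (0.618 and -0.618 with WT replicate 2), so their values cannot show whether the numbers pair samples. The value of 0.618 was between 2 replicates marked as female. Between R594C/+ and WT, same-numbered replicates had -0.0863 to 0.168 and the others -0.194 to 0.135, so no pairing by number was seen there. With the replicate block the log2 fold change of Fcgr2b for R594C/R594C minus WT was -0.84 (adjusted p = 0.0329), and that of Lilrb4a -1.82 (adjusted p = 0.0165) against WT and -1.60 (adjusted p = 0.0392) against R594C/+.

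Neighbouring classes differed in 26 pairs, and in 13 to 15 when 1 replicate was left out, where the smallest p possible is larger. The fold of Fcgr2b in germinal centre-like against follicular-like cells was 0.031 with library size only. Of 1080 levels recomputed, 3 moved beyond 1 SD. Of 4 tags, 4 were called in follicular-like cells for R594C/R594C minus WT and for R594C/+ minus WT, and 1 in each with the antibody library size only. In monocyte-like cells 2 were called for R594C/R594C minus WT, 0 with that size and 1 to 2 when 1 replicate was left out. In B1-like cells 3 were called for R594C/R594C minus WT (1 to 3 when 1 replicate was left out) and 1 for R594C/+ minus WT (0 to 2). With antibody library size only, log2 fold changes turned for CD5 (-0.16) and CD22 (-0.047) in follicular-like cells for R594C/R594C minus WT, for PIRA_PIRB (-0.064) there for R594C/+ minus WT, and for CD22 (-0.46) and PIRA_PIRB (-0.31) in B1-like cells for R594C/R594C minus WT. The causes were not tested. The 2 R594C/R594C replicates and the low counts of Lilrb4a in B1-like cells limit the precision.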
